A study of Homo sapiens with 4 samples.

Results

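The DNA replication and mitosis genes are 34 genes that cycling cells switch on in G1/S (15 genes) or in G2/M (19 genes), chosen by name for their known roles and found by Ensembl ID in a table of 60617 gene IDs. All 34 were found. Messenger RNA was measured by RNA-seq in T24 and 5637, which are established cell lines of human bladder cancer. Of each line, 1 library came from untreated cells and 1 from cells kept for 6 h with protodioscin, a steroidal saponin of plants such as yam and fenugreek, at 60 µM for T24 and 70 µM for 5637. The labels name no vehicle for the untreated cells, and the treatment protocol writes the doses in millimolar where the titles give µM. All 4 cultures were grown in RPMI with serum. There was 1 library per line and treatment, so a difference within a line has no replicate check.

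Before a cell copies its DNA, the MCM2 to MCM7 proteins are loaded as a ring-shaped helicase at replication origins by CDC6 and CDT1, and cyclin E with its kinase starts S phase. E2F transcription factors, held back by the retinoblastoma protein RB1, drive these G1/S genes. The G2/M genes are driven later by the MuvB complex with B-MYB and FOXM1, many of them through a promoter element called CHR (cell cycle genes homology region). Their products include cyclin B with CDK1, the mitotic kinases and the motors of the spindle. In bulk RNA, a change in the share of cells in a phase and a change in RNA per cell cannot be told apart.

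The letters of these elements differed between the promoters of both groups, so a few are shown here. RefSeq windows from 250 bases before to 50 bases after a start (GRCh38.p14) were at hand for 27 of the 34 members. The CHR letters (TTTGAA, or in another form TTCGAA), on either strand, were in a window of 10 of 15 G2/M members (66.7%) and of 1 of 12 G1/S members (8.33%), against 19.5% of 27305 genes. The E2F letters, on either strand, were TTCCCGC as the first form, TTCGCGC as the next, TTGCCGC as another and TTGGCGC as the last. They were in a window of 11 of 12 G1/S members (91.7%) and of 3 of 15 G2/M members (20%), against 15.3% of all genes. CCAAT, to which NF-Y binds, was in 8 of 12 and in 14 of 15, against 39.7% of all genes. In the other genes listed for replication and for mitosis, the CHR letters were in 5 of 52 and in 51 of 64, and the E2F letters in 36 of 52 and in 25 of 64. A match of letters is a description and not a measured binding site.

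The last 120 bases before the start of 6 members follow, 5′ to 3′ on the gene's strand, with E2F letters of either strand in capitals for G1/S members and CHR letters of either strand in capitals for G2/M members. They were taken from members with 1 window, few bases in an annotated exon and a match in these bases. The G1/S sequences lie at chr2:135876444-135876563 (minus strand), chr3:48188418-48188537 (minus strand) and chr20:33686386-33686505 (minus strand). The G2/M sequences lie at chr1:43358861-43358980 (plus strand), chr10:128126424-128126543 (minus strand) and chr10:92593010-92593129 (plus strand).
MCM6: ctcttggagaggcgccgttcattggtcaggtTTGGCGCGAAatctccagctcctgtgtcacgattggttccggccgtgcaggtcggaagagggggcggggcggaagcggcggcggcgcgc
CDC25A: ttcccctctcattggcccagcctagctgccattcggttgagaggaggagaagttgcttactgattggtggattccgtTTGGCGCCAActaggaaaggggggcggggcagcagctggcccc
E2F1: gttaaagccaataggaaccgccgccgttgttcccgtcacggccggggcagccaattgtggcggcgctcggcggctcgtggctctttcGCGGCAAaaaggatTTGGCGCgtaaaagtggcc
CDC20: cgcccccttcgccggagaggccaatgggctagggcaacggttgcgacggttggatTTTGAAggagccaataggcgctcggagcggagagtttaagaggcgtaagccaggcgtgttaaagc
MKI67: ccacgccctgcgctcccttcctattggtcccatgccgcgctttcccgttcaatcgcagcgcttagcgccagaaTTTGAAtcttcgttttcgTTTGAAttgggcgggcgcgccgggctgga
KIF11: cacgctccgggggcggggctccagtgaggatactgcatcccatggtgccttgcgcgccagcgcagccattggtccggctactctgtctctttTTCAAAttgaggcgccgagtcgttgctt
In MCM6 and CDC25A the 2 matches overlap on opposite strands. MKI67 holds TTTGAA at 47 and again at 29 bases before the start (first base of the match). In KIF11 the match lies on the other strand, 28 bases before the start. The levels of the genes behind these sequences in untreated and treated cells are given below. Any link between these letters and the treatment was not tested.

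Most members were abundant in all 4 libraries. CCNE1, CCNE2 and CDC25A were not in untreated T24, at the 24.3rd, 35.2nd and 41.0th percentile of expressed genes. FPKM (fragments scaled by the authors for transcript length and library size) corrects for transcript length, so levels can be compared between genes. Over the members it ran from 3.84 to 257 in untreated T24 and from 7.97 to 177 in untreated 5637. Every member was above 1 FPKM in each library, and their median lay at the 91.6th percentile of expressed genes in untreated T24 and at the 86.7th in untreated 5637. The highest in each library was UBE2C, the ubiquitin-conjugating enzyme of the anaphase-promoting complex. UBE2C was at 257 and 277 FPKM in T24 (untreated, then treated) and, in 5637, at 177 and 178 FPKM. The lowest in T24 was CCNE1 (cyclin E1), at 3.84 and 4.01 FPKM, and in 5637 CDC25C, the phosphatase that activates CDK1, at 7.97 and 7.95 FPKM.

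**Figure D1:**
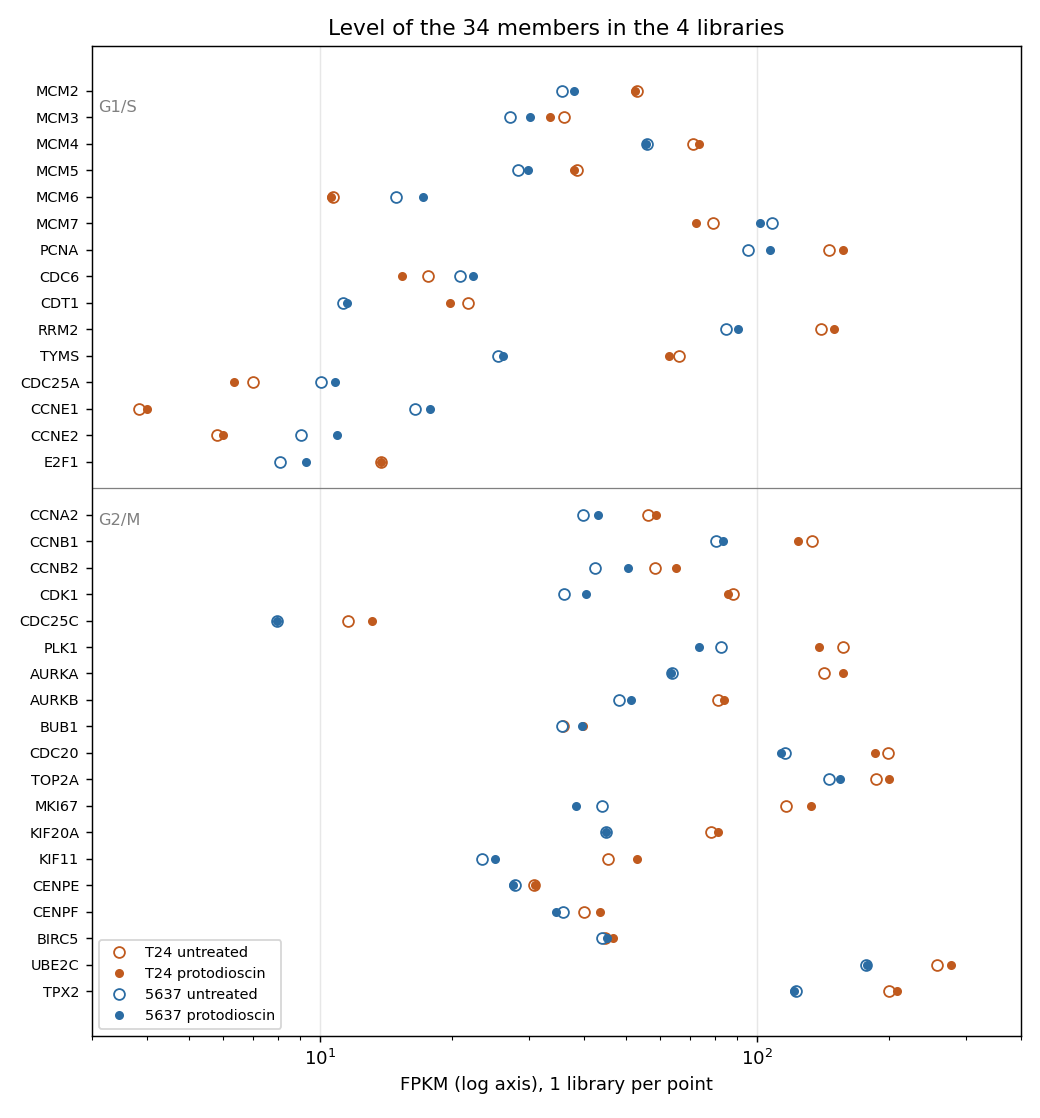
FPKM of the 34 members (log axis) in untreated (open) and treated (filled) T24 and 5637, 1 library per point, G1/S members above the line and G2/M members below it. Open and filled points of a line nearly coincide, while the lines lie apart, with T24 to the right in 28 of 34 members.

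The depth was not part of the table. From the spacing of the lowest FPKM values it was estimated at 20.4 M fragments for untreated T24 and 26.2 M for treated T24, against 29.3 M for untreated 5637 and 24.2 M for treated 5637 (M for mega). Of the FPKM sum, mitochondrial genes made up 4.50% and 3.74% in T24 and 9.84% and 11.9% in 5637. Of the leukocyte markers, CD14 was at 0.853 FPKM or less in all libraries, and PTPRC and CD3E were at or near 0. The epithelial markers KRT7, KRT8, KRT18, KRT19, EPCAM and CDH1 ran from 69.6 to 1388 FPKM in untreated 5637, whereas CDH1 (E-cadherin) was at 0.016 FPKM and EPCAM at 2.09 FPKM in untreated T24. Not all of these 6 markers were low in T24, where the highest was at 1073 FPKM in untreated cells. They summed to 1972 FPKM in untreated T24 and to 3959 FPKM in untreated 5637.

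Protodioscin left the members close to their untreated level in both lines. Differences are treated minus untreated log2(FPKM + 1) throughout. In T24 they ran from -0.19 (CDC6) to 0.21 (KIF11), and in 5637 from -0.20 (MKI67) to 0.25 (CCNE2). No member differed by 1 (2-fold) in either line, where 0.205% of 12193 genes compared were higher and 0.279% lower by that much in T24, and 0.174% and 0.214% of 12635 genes in 5637. At a smaller size of 0.25, none of the 34 passed in T24, against 8% of genes higher and 8.58% lower. In 5637 the cyclin E2 gene CCNE2 (0.252) was the only one, against 9.31% of genes higher and 6.4% lower. CCNB2 was just short of it (0.245). CCNE2 was below 0.25 with a pseudocount of 5 or with TPM, median-ratio or quantile scaling.

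Over both lines, limma with cell line as a block called 0 of 34 members for treatment at a Benjamini-Hochberg adjusted p below 0.05, against 0% of 12893 genes. The adjusted p of the members ran from 0.495 to 0.995. At an unadjusted p below 0.05 limma had 2 members, CCNB2 and PLK1, against 9.52% of all genes. The fit leaves 1 residual degree of freedom, so its residual is how unlike the lines responded, and their doses were unlike too. Whether the cultures were independent is not stated in the labels, so these p-values cover only the spread between these libraries.

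The members that load the helicase and form it differed by 0.20 or less in each line, in some of them with unlike signs. CDC6, which recruits the helicase to origins, was at 17.7 and 15.3 FPKM in T24 (untreated, then treated; difference -0.19), and, in 5637, at 20.9 and 22.4 FPKM (0.095). CDT1, its partner, was at 21.7 and 19.8 FPKM in T24 (-0.13) and, in 5637, at 11.3 and 11.5 FPKM (0.027, and below 0 with each of the other scalings). MCM3 was at 36.1 and 33.5 FPKM in T24 (-0.11) and, in 5637, at 27.2 and 30.1 FPKM (0.15). CDC6 and MCM3 were thus lower with treatment in T24 and higher in 5637.

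MCM7 was lower with treatment in both lines, at 79.1 and 72.3 FPKM in T24 (-0.13) and, in 5637, at 108 and 101 FPKM (-0.091). MCM6 was at 10.7 and 10.6 FPKM in T24 (-0.014) and, in 5637, at 14.9 and 17.2 FPKM (0.20), the largest difference within the helicase. MCM2 was at 52.95 and 52.5 FPKM in T24 and, in 5637, at 35.6 and 38.0 FPKM. MCM4 and MCM5 differed by 0.074 or less in each line. Of the 6 helicase genes, 5 were below 0 in T24 and 2 in 5637.

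PCNA, the sliding clamp of the DNA polymerases, was higher with treatment in both lines, at 146 and 157 FPKM in T24 (0.11) and, in 5637, at 95.1 and 107 FPKM (0.17). RRM2, the regulated subunit of ribonucleotide reductase, was at 139.6 and 149.98 FPKM in T24 (0.10) and, in 5637, at 84.9 and 90.4 FPKM (0.089). RRM2 shares exons with another annotated gene on its strand, so its value depends on how reads were divided. TYMS, the thymidylate synthase that 5-fluorouracil inhibits, was at 66.1 and 62.6 FPKM in T24 (-0.076) and, in 5637, at 25.5 and 26.2 FPKM (0.040). The treatment differences of these nucleotide and clamp genes were below 0.2 in each line.

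Among the genes of the G1/S switch, all 4 were above 0 in 5637 and 2 of 4 in T24. The transcription factor E2F1 was at 13.8 and 13.7 FPKM in T24 and, in 5637, at 8.08 and 9.28 FPKM (0.18). CCNE2 was at 5.81 and 5.99 FPKM in T24 (0.038) and, in 5637, at 9.02 and 10.9 FPKM (0.25). CCNE2 shares exons with INTS8 of the other strand, and the kit does not mark strand, so its value depends on how reads were divided. INTS8 was at 14.6 and 17.4 FPKM in T24 and, in 5637, at 11.3 and 13.2 FPKM. CDC25A, the phosphatase that releases the S phase kinase, was at 7.02 and 6.33 FPKM in T24 (-0.13) and, in 5637, at 10.03 and 10.8 FPKM (0.10). CCNE1 differed by 0.050 in T24 and by 0.10 in 5637.

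Of the genes of mitotic entry, CCNB2 (cyclin B2) and PLK1 (polo-like kinase 1) were the members with an unadjusted p below 0.05 in limma. CCNB2 was at 58.3 and 65.2 FPKM in T24 (0.16) and, in 5637, at 42.5 and 50.5 FPKM (0.245). It was higher with treatment in both lines (limma 0.20, SE 0.062, adjusted p = 0.495). PLK1 was at 157 and 139 FPKM in T24 (-0.18) and, in 5637, at 82.6 and 73.4 FPKM (-0.17), lower in both lines (limma -0.17, SE 0.058, adjusted p = 0.496). Neither passed the adjusted threshold. BUB1, a kinase of the spindle checkpoint, was higher by 0.15 in each line, at 36.0 and 39.9 FPKM in T24 and, in 5637, at 35.6 and 39.7 FPKM.

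The cyclin B1 gene CCNB1 was at 133 and 124 FPKM in T24 (-0.11) and, in 5637, at 80.2 and 83.5 FPKM (0.057, and -0.0058 with median-ratio scaling), unlike its paralogue CCNB2. CDC25C was at 11.6 and 13.1 FPKM in T24 (0.17) and, in 5637, at 7.97 and 7.95 FPKM (-0.0030). CDC25C shares exons with FAM53C of the other strand, at 14.7 and 16.8 FPKM in T24 and, in 5637, at 11.3 and 11.5 FPKM. CDK1, the kinase of both cyclins, was at 87.8 and 85.4 FPKM in T24 (-0.039) and, in 5637, at 36.1 and 40.4 FPKM (0.16). CCNA2 (cyclin A2) was at 56.1 and 58.7 FPKM in T24 (0.066) and, in 5637, at 39.8 and 43.2 FPKM (0.12). AURKA, a kinase of the spindle poles, was at 142 and 157 FPKM in T24 (0.15) and, in 5637, at 63.7 and 63.4 FPKM (-0.0069). AURKB, the kinase of the chromosomal passenger complex, differed by 0.049 in T24 and 0.089 in 5637. CDC20, the activator of the anaphase-promoting complex, was lower in both lines, at 198 and 186 FPKM in T24 (-0.094) and, in 5637, at 116 and 113 FPKM (-0.037).

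MKI67, which encodes the proliferation marker Ki-67, had the largest difference between the responses of the lines. It was at 116 and 132 FPKM in T24 (untreated, then treated; difference 0.19), and, in 5637, at 44.1 and 38.4 FPKM (-0.20). CENPF, a kinetochore protein, had the same signs, at 40.2 and 43.6 FPKM in T24 (0.12) and, in 5637, at 35.8 and 34.6 FPKM (-0.049). KIF11, the motor that separates the spindle poles, was at 45.6 and 52.9 FPKM in T24 (0.21) and, in 5637, at 23.4 and 25.1 FPKM (0.097). TOP2A, which untangles chromosomes, was at 186 and 199.8 FPKM in T24 (0.10) and, in 5637, at 146 and 155 FPKM (0.082). TPX2 (a spindle assembly factor), KIF20A, CENPE, BIRC5 and UBE2C differed by 0.11 or less in T24 and by 0.039 or less in 5637.

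**Figure D2:**
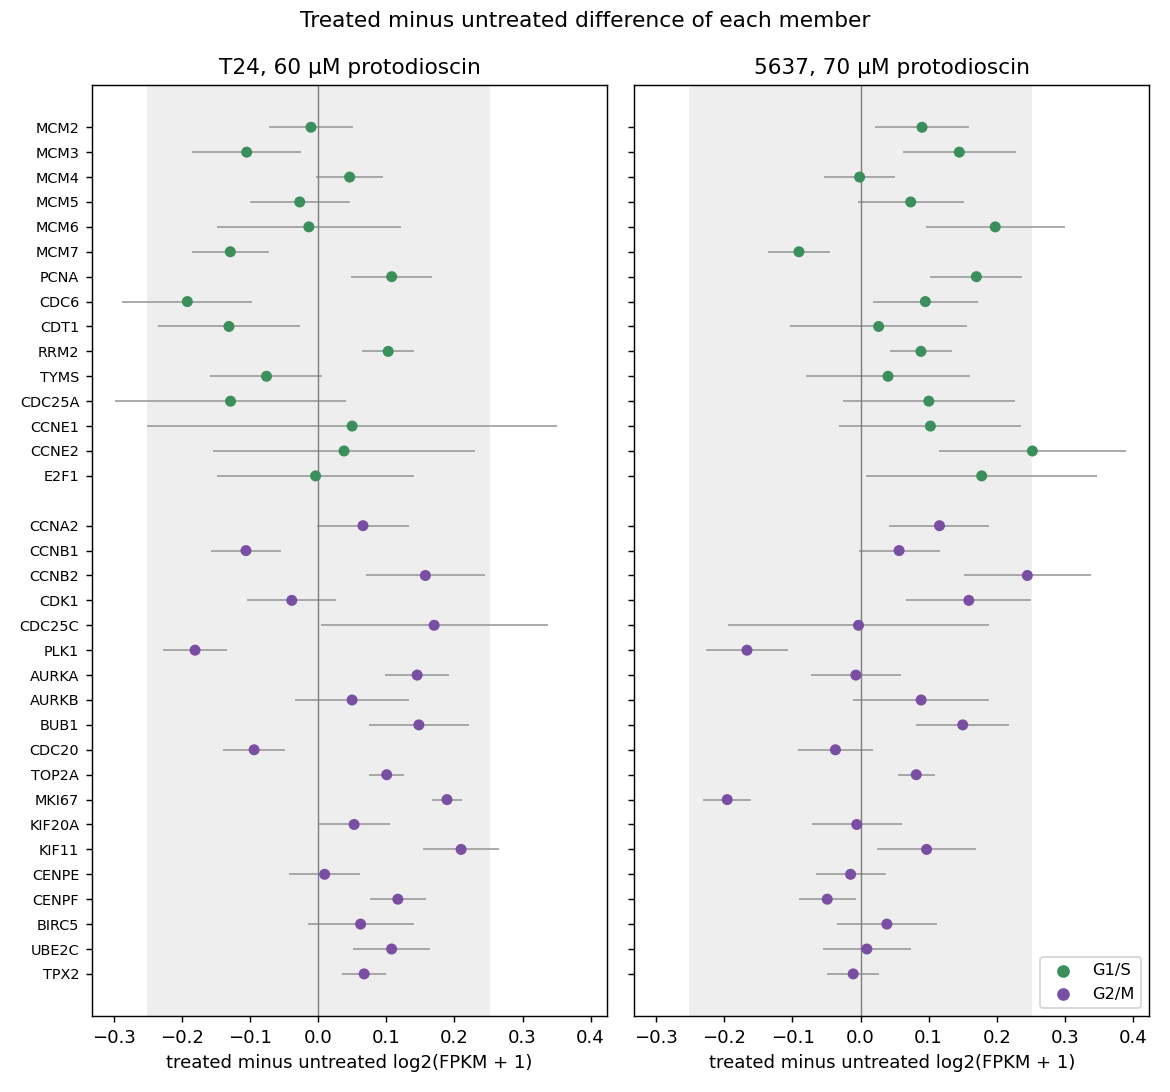
Treated minus untreated log2(FPKM + 1) of each member in T24 (left) and 5637 (right), green for G1/S and purple for G2/M, with bars of 2 SD of the estimated counting error and a grey band from -0.25 to 0.25. In T24 most purple points lie right of 0 (15 of 19) and most green points left (10 of 15), and in 5637 most green points lie right (13 of 15).

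The gap between the G2/M and G1/S medians was small and had opposite signs in the lines. In T24 the median difference was -0.014 for the G1/S members, with 10 of 15 below 0 (8 with TPM scaling). For the G2/M members it was 0.067, with 4 of 19 below 0. All 12193 genes compared had a median of 0.025, with 44% below 0. In 5637 the median was 0.095 for the G1/S members, with 2 of 15 below 0 (4 with TPM or median-ratio scaling), and 0.0092 for the G2/M members, with 9 of 19 below 0. All 12635 genes compared had a median of 0.043 there, with 38.5% below 0. The G2/M median was above the G1/S median by 0.081 in T24 and below it by 0.086 in 5637 (-0.086 as G2/M minus G1/S). The G2/M median of 5637 lay on the other side of 0 with TPM (-0.033), median-ratio (-0.054) or quantile scaling (-0.00059).

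The middle 50% of single genes ran from -0.091 to 0.13 in T24 and from -0.060 to 0.14 in 5637, a range with which a median of many genes is not to be compared. No replicate library was at hand to give the error of a median. From the estimated fragments, the SD of a member's difference from counting alone was 0.011 to 0.15 in T24 and 0.013 to 0.096 in 5637. By that measure 19 of 34 differences in T24 and 18 of 34 in 5637 were over 2 SD from 0, and culture and library preparation add to that error by an unknown amount. In the same libraries the treated T24 sample was the deeper of its pair and the treated 5637 sample the shallower, and the mitochondrial share was lower in treated T24 and higher in treated 5637, with the values given above. Their part in the result was not tested.

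The G1/S members also had transcripts richer in G and C, with a median of 51.6% against 46.6% for the G2/M members. Across the 34 members, the Spearman correlation of the difference with GC content was -0.43 in T24 and -0.27 in 5637, and across all genes compared it was -0.039 and -0.15. The members share 4 libraries, so these are descriptions. With transcript length the correlation over members was 0.052 in T24 and -0.15 in 5637. The part of GC content in the result was not tested.

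Summed over members, the G1/S genes held 710 FPKM in untreated and 715 FPKM in treated T24, and 551 and 579 FPKM in 5637. The G2/M genes held 1960.5 and 2026 FPKM in T24 and 1218 and 1236 FPKM in 5637. The ratio of the G2/M sum to the G1/S sum, which a single factor per library does not alter, was 2.76 untreated and 2.83 treated in T24, and 2.21 untreated and 2.14 treated in 5637. The ratio thus differed more between the lines than with treatment in either.

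Gene by gene, 12 of 34 members were above 0 in both lines (35.3%), against 39.2% of 11417 genes compared in both. PCNA, RRM2, CCNB2, BUB1, KIF11 and TOP2A were among them. Below 0 in both were 3 of 34, MCM7, PLK1 and CDC20 (8.82%), against 19.8% of genes. Of the G1/S members, 9 of 15 were below 0 in T24 and above 0 in 5637 (60%, against 23.98% of genes). Of the G2/M members, 7 of 19 were above 0 in T24 and below 0 in 5637 (36.8%, against 17.1%). Both counts include differences smaller than their SD from counting alone. In 5637 these were CDC25C (-0.0030), AURKA (-0.0069), KIF20A (-0.0056), TPX2 (-0.011) and CENPE (-0.015) among the G2/M members. Among the G1/S members they were, in T24, MCM2 (-0.011), MCM5 (-0.027), MCM6 (-0.014) and E2F1 (-0.0040). Signs of differences near 0 are weakly held: MCM2, E2F1 and CENPE in T24, and CDT1, TYMS, CCNB1, BIRC5 and UBE2C in 5637, changed sign under at least 1 of the TPM, median-ratio and quantile scalings. The differences of the lines correlated across the 34 members with a Pearson r of 0.081 and across all genes with 0.12.

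**Figure D3:**
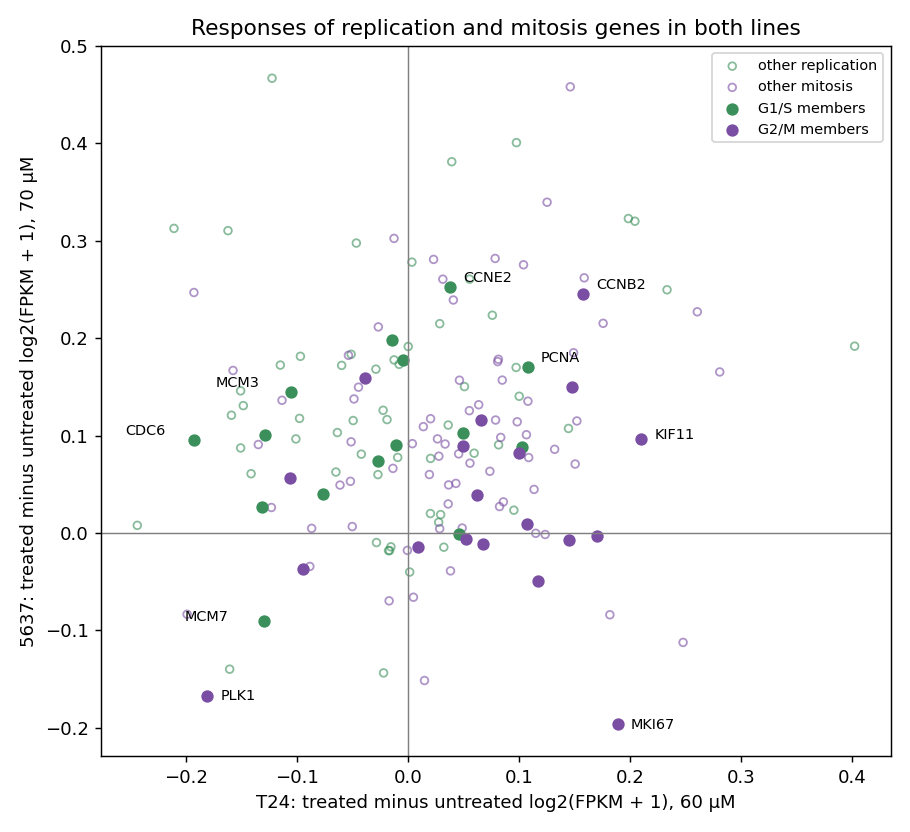
Treated minus untreated log2(FPKM + 1) in T24 (x axis, 60 µM) and 5637 (y axis, 70 µM), with filled points for the members and open points for the other replication and mitosis genes, 1 pair of libraries per line. MKI67 lies at 0.19 and -0.20, PLK1 at -0.18 and -0.17, and CCNB2 at 0.16 and 0.245.

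The remaining genes of replication and mitosis, from lists fixed by role, were set beside the members. In T24 the 59 other replication genes had a median of -0.015, with 33 below 0, and the 73 other mitosis genes a median of 0.041, with 20 below 0. In 5637 the medians were 0.12, with 8 of 59 below 0, and 0.092, with 12 of 73 below 0. In T24, 1 of 59 and 2 of 73 were at least 0.25 higher, and in 5637 10 of 59 and 8 of 73, against the 8% and 9.31% of all genes given above. No gene of these lists was 0.25 lower in either line. For treatment over both lines, limma called 0 of 59 and 0 of 73 at an adjusted p below 0.05, with 5 and 8 at an unadjusted p below 0.05, each of these higher, against 5.58% of all genes.

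By role, those below 0 in treated 5637 were 0 of 10 genes of origin recognition and licensing (median 0.14), 1 of 12 of helicase activation (0.11), 5 of 24 polymerase and fork genes (0.11), 0 of 5 of nucleotide supply (0.17) and 2 of 8 of chromatin assembly and other S phase functions (0.20). All genes compared there had 38.5% below 0. In T24 the medians of these groups were, in the same order, -0.021, -0.014, -0.016, -0.047 and 0.015. Of the mitosis genes, 3 of 15 cyclin, CDK1 regulator and kinase genes (median 0.091), 4 of 24 spindle and cytokinesis genes (0.075), 4 of 21 kinetochore and checkpoint genes (0.18) and 1 of 13 condensin and passenger genes (0.086) were below 0 in 5637. Their medians in T24 were 0.033, 0.051, 0.036 and 0.037. The largest differences among replication genes in 5637 were those of POLE2, a subunit of the leading-strand polymerase, at 5.61 and 8.13 FPKM (0.47), TIPIN, a fork protection factor (0.40), and SLBP, which binds histone mRNA (0.38). RNASEH2A (-0.14), UHRF1 (-0.14) and DNMT1 (-0.040) were lowest. In T24 MCM9 (0.40), DBF4 (0.23) and CHAF1B (0.20) were highest and ORC5 (-0.24), DUT (-0.21) and RPA3 (-0.16) lowest. MCM9 was low there, at 1.62 and 2.46 FPKM, and RPA3 was at 4.74 and 4.13 FPKM. The SD from counting alone was 0.14 for each of them. DUT, which removes dUTP, was higher in treated 5637, at 9.79 and 12.4 FPKM, and lower in treated T24, at 30.6 and 26.3 FPKM. CHAF1B, TIPIN, RNASEH2A and DNMT1 share exons with a neighbour on their strand.

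Among the other mitosis genes, SKA1, a microtubule coupler of the kinetochore, was at 12.3 and 17.3 FPKM in 5637 (0.46), followed by SPC24 of the NDC80 complex (0.34) and CDCA3 (0.30). CDC25B (-0.15), NUSAP1 (-0.11) and INCENP (-0.084) were lowest there. In T24 the kinase gene NEK2 was at 25.4 and 31.1 FPKM (0.28), followed by the securin gene PTTG1 (0.26) and NUSAP1 (0.25), and BUB3 (-0.20), SGO1 (-0.19) and CENPN (-0.16) were lowest. NUSAP1, which bundles spindle microtubules and shares exons with a neighbour, thus had the signs of MKI67, at 119.7 and 142 FPKM in T24 and, in 5637, at 76.6 and 70.8 FPKM.

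CDKN1A, the p53 target that encodes the CDK inhibitor p21, was at 30.4 and 54.2 FPKM in T24 (0.82) and, in 5637, at 56.9 and 53.01 FPKM (-0.10). MDM2, another p53 target, was at 17.58 and 21.3 FPKM in T24 (0.27) and, in 5637, at 9.99 and 8.80 FPKM (-0.17). Both were higher with treatment in T24 alone of the lines, where 10 of 15 G1/S members were below 0 (8 with TPM scaling). Any link between these values was not tested.

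The lines themselves differed far more than treated from untreated cells. Between the untreated libraries, 28 of 34 members were higher in T24, and the same 28 were higher in T24 between the treated libraries. Of 13130 genes compared, 51.9% were higher in untreated T24. At least 1 higher on the log2 scale were TYMS, CDK1, AURKA and MKI67 (4 of 34, against 8.7% of genes), and at least 1 lower was CCNE1 (1 of 34, against 11.2%). The median absolute difference between the untreated lines was 0.56 over the members, against 0.10 for treatment in T24 and 0.090 in 5637. Over all genes compared it was 0.45 between the untreated lines, against 0.112 for treatment in T24 and 0.109 in 5637. A larger difference between the lines than with treatment was thus not particular to the members. In 32 of 34 members the difference between the untreated lines was larger than the response of T24, and in 32 of 34 it was larger than that of 5637. BUB1 was at 36.0 and 35.6 FPKM and BIRC5 (survivin) at 44.7 and 44.0 FPKM in untreated T24 and 5637, so these 2 genes were nearly level.

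With cell line and treatment in 1 limma fit, 25 of 34 members were called higher in T24 at an adjusted p below 0.05, against 35.1% of genes, and 6 were called lower, against 33.9%. The 25 are 73.5% of the members. In this fit the untreated and the treated library of a line serve as its replicates, with 1 residual degree of freedom. The SE and p-values of the line effect, here and below, thus do not measure the spread between separate cultures of a line. Line and any batch of culture or preparation cannot be told apart. Since most genes are called between these lines, a call by itself says little, and the balance of directions is what sets the members beside all genes. All 6 called lower were G1/S members. The G2/M members gave 16 of 19 higher and 0 lower, with BUB1, CENPE and BIRC5 not called, and the G1/S members 9 of 15 higher.

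**Figure D4:**
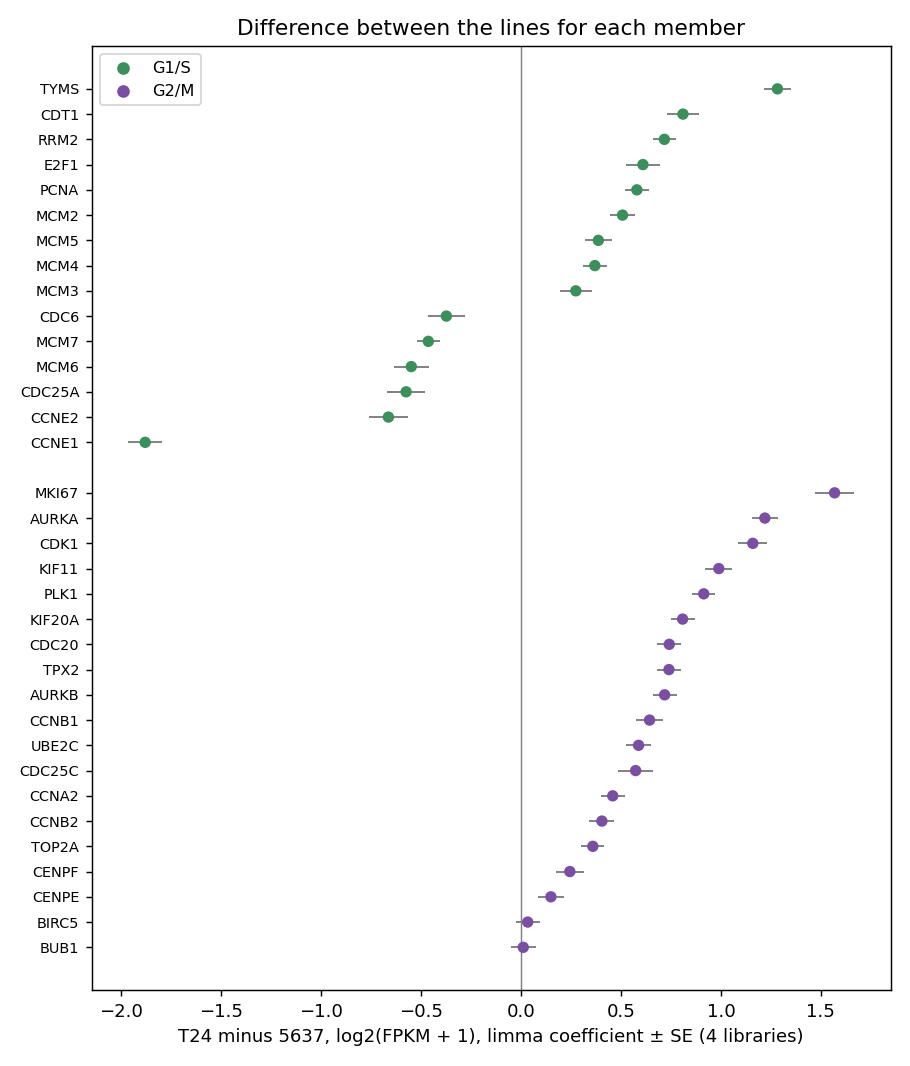
limma coefficient of T24 minus 5637 on the log2(FPKM + 1) scale for each member, with bars of 1 SE over 4 libraries, G1/S in green and G2/M in purple. All purple points lie right of 0, and 6 green points lie left of it, with CCNE1 farthest at -1.88. The untreated and the treated library of a line serve as its replicates.

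The members that stood highest in T24 were MKI67 (limma 1.57, SE 0.098, adjusted p = 4.3e-05), TYMS (1.28, SE 0.066, adjusted p = 2.1e-05) and AURKA (1.22, SE 0.066, adjusted p = 2.5e-05). Untreated T24 had 2.63 times the MKI67 FPKM of untreated 5637, 2.59 times the TYMS FPKM and 2.23 times the AURKA FPKM. Of the 8 members that share exons with a gene of the other strand, TYMS does so with ENOSF1, and the kit does not mark strand. The others are MCM2, MCM7, CCNE2, CCNA2, CDC25C, PLK1 and KIF20A, whose values likewise depend on how reads were divided. ENOSF1 was at 7.36 FPKM in untreated T24 and at 7.17 FPKM in untreated 5637. CDK1 was next, at 87.8 and 36.1 FPKM in untreated T24 and 5637.

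Highest in 5637 was CCNE1, at 3.84 and 4.01 FPKM in T24 (untreated, then treated) and, in 5637, at 16.5 and 17.8 FPKM (limma -1.88, SE 0.085, adjusted p = 1.3e-05). Untreated 5637 had 4.30 times the CCNE1 FPKM of untreated T24. The other cyclin E gene, CCNE2 (-0.66, SE 0.097, adjusted p = 0.0013), and the phosphatase CDC25A (-0.57, SE 0.096, adjusted p = 0.0025) followed. MCM6, MCM7 and CDC6 were the remaining members called lower in T24. So the cyclin E genes, CDC25A, CDC6, MCM6 and MCM7 were higher in 5637, while MCM2, MCM3, MCM4, MCM5, E2F1, CDT1, PCNA and the enzymes of nucleotide supply were higher in T24.

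Of the 19 listed regulators of these genes, limma called 7 higher and 6 lower in T24 at an adjusted p below 0.05. Over all genes tested these shares were 35.1% and 33.9%. The median absolute difference of the regulators between the untreated lines was 0.27, against 0.45 over all genes compared. RB1 and E2F3 lay far apart between the lines. RB1 was at 30.4 and 31.6 FPKM in T24 (untreated, then treated), and, in 5637, at 0.643 and 0.554 FPKM. The coefficient for RB1 4.32 by limma (T24 minus 5637, SE 0.095, adjusted p = 1.3e-06). E2F3, an activator of S phase genes that is amplified in a subset of bladder cancers, was at 7.01 and 6.56 FPKM in T24 and, in 5637, at 110.7 and 108 FPKM. The coefficient for E2F3 -3.83 by limma (T24 minus 5637, SE 0.065, adjusted p = 6e-07). Untreated 5637 had 15.8 times the E2F3 FPKM of untreated T24, and untreated T24 had 47.3 times the RB1 FPKM of untreated 5637. RB1 and E2F3 were chosen here after their values were seen. The link between these levels and those of the members was not tested.

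The regulators differed little with treatment. In T24 LIN52, a MuvB subunit (0.26), the repressor E2F7 (0.25) and RBL1 (0.19) were highest and E2F5 (-0.24), E2F4 (-0.14) and RBBP4 (-0.10) lowest. Over the 17 of 19 regulators that reached 1 FPKM in 5637, LIN52 (0.26), E2F6 (0.20) and RBL2 (0.17) were highest and LIN54 (-0.17), FOXM1 (-0.052) and E2F3 (-0.031) lowest. LIN52 was thus higher in both lines, at 7.37 and 9.01 FPKM in T24 and, in 5637, at 4.33 and 5.38 FPKM. MYBL2, which encodes B-MYB, was at 84.0 and 90.9 FPKM in T24 and, in 5637, at 83.9 and 85.1 FPKM. FOXM1 was at 75.2 and 75.8 FPKM in T24 and, in 5637, at 56.6 and 54.6 FPKM. limma called 0 of 19 regulators for treatment at an adjusted p below 0.05, with 1 at an unadjusted p below 0.05.

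**Figure D5:**
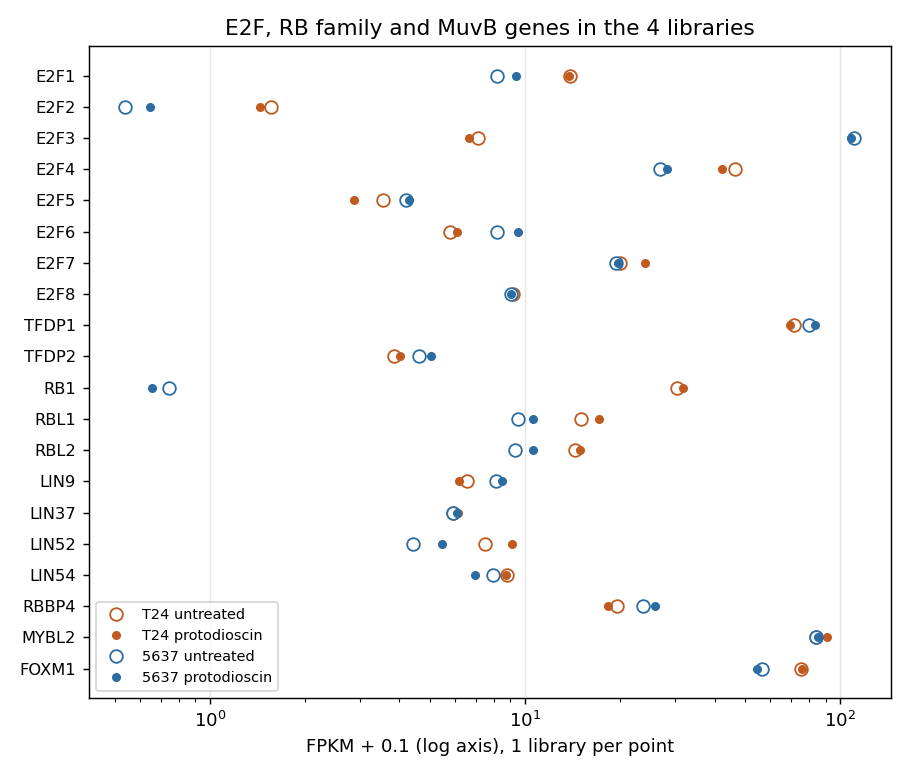
FPKM + 0.1 (log axis) of E2F1 and the 19 listed regulators in untreated (open) and treated (filled) T24 and 5637, 1 library per point. The 5637 points of RB1 (0.643 and 0.554 FPKM) lie far left of its T24 points (30.4 and 31.6 FPKM), and those of E2F3 (110.7 and 108 FPKM) far right (7.01 and 6.56 FPKM in T24).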

How the data were processed

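Messenger RNA of T24 and 5637 was measured with 1 library per line and treatment (4 in all). Per the labels' protocols, RNA from a Qiagen kit went into Illumina TruSeq RNA v2 libraries, a kit that does not mark strand, for paired-end sequencing. The authors deposited gene-level FPKM for the 4 libraries; the submitters' processing notes list Trimmomatic, HISAT2, StringTie and GRCh38. Tool versions and annotation: not given in the sources used here. Symbols came from a table of gene names, and coordinates, transcript length (principal isoform), GC content (longest transcript) and exon overlap from GENCODE 29. Promoter sequences came from RefSeq (GRCh38.p14).

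Values were analysed as log2(FPKM + 1), a scale that understates the change of low genes, in Python 3.11.15 (pandas 2.3.3, scipy 1.17.1). Within a line, a gene was compared when either library reached 1 FPKM, with size rules of 0.25 and 1 and no test. The fit over all 4 libraries used limma 3.58.1 in R 4.3.3 with cell line and treatment as terms, a trended prior variance and the genes that reached 1 FPKM in 2 libraries. A call was a Benjamini-Hochberg adjusted p below 0.05 over all genes tested. The block is the cell line named in the labels, which do not say whether the untreated and treated cultures of a line were paired. The fit was run on simulated data whose noise followed the fit's own variance estimate. That run checked the code only and does not bear on how well the fit holds for these unreplicated libraries. What 1 fragment is worth on 1 kb was taken as the most frequent low value of single-transcript genes over 500 bases (0.0342 to 0.0490 FPKM), which gave the estimated depth and counting error. Counting error covers sampling of fragments only.

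All members are named. Of each other list, the 3 genes highest and the 3 lowest in each line are named, and of the line effect the 3 largest in each direction; CDKN1A, MDM2, RB1, MYBL2 and further values of E2F3, FOXM1, DUT and NUSAP1 were added after values were seen. Members and lists were chosen with earlier results of these data known. Alternatives were pseudocounts of 0.1 and 5, no filter, a filter at 5 FPKM, TPM, median-ratio and quantile scaling, genes without same-strand exon sharing, a prior variance without a trend and no block.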

Additional observations from a re-analysis of the deposited data

Results flagged for a closer look

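The responses of the lines had opposite signs and differed by at least 0.25 on the log2(FPKM + 1) scale for 3 members. MKI67 was lower in 5637 than in T24 by this measure (response of 5637 minus response of T24, -0.38), and CDC6 (0.29) and MCM3 (0.25) were higher. The median of the G1/S members also had opposite signs in the lines, with 5637 above T24 by 0.11. The G2/M median minus the G1/S median was lower in 5637 than in T24 by the same measure (-0.17). There is 1 library per line and treatment and the doses differ, so these differences between the lines were not tested, and the effect of line and dose cannot be told apart.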

How the results depend on the processing

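The gap between the G2/M and G1/S medians kept its sign in each line under all 8 alternatives run within a line. In T24 it was 0.088 with a filter at 5 FPKM, 0.094 with quantile scaling and 0.088 without exon-sharing genes, and in 5637 -0.073 with a pseudocount of 5 and -0.067 with quantile scaling. The G1/S median in T24 was -0.021 with a filter at 5 FPKM and without exon-sharing genes, -0.0028 with TPM, -0.033 with median-ratio and -0.023 with quantile scaling. In 5637 it was 0.082 with a pseudocount of 5, 0.054 with TPM, 0.035 with median-ratio and 0.066 with quantile scaling. The G2/M median in T24 was 0.079 with TPM and 0.046 with median-ratio scaling, and in 5637 it changed sign, to -0.033 with TPM, -0.054 with median-ratio and -0.00059 with quantile scaling. The median of all genes in 5637 was -0.013 with median-ratio scaling. With TPM or median-ratio scaling, 4 of 15 G1/S members were below 0 in 5637, and with TPM scaling 8 of 15 were below 0 in T24. Members at least 0.25 higher in 5637 were 0 with a pseudocount of 5, TPM, median-ratio or quantile scaling, and 1 was at least 0.25 lower with median-ratio scaling. The cause was not tested.

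limma called 0 members for treatment under all 10 alternatives, with 0 to 4 members at an unadjusted p below 0.05, and 0 of these without the replicate block for cell line (lowest adjusted p 0.999993). With cell line as the only term, 25 members were called higher and 6 lower in T24, and over all alternatives 23 to 26 were higher and 5 to 6 lower. Leaving out a library was not possible, because a fit of 3 libraries has no residual degrees of freedom. Depth limits the low members most, such as CCNE1 and CCNE2 in T24, whose counting SD was 0.15 and 0.096.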
